A study of Capra hircus with 8 samples.

Results

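Histone acetyltransferases transfer an acetyl group from acetyl-CoA to lysines of histones, which loosens chromatin and marks promoters and enhancers that are in use. The enzymes fall into families, and most of the enzymes work inside large complexes that choose the target lysine. In the early embryo they act against the histone deacetylases while the genome is first switched on, and deacetylase inhibitors are often added to cloned embryos of farm animals to raise histone acetylation. The 10 genes described here were taken by symbol from the messenger RNA table of 8-cell goat embryos, 10 of 22107 entries. They are KAT2A and KAT2B (the GCN5/PCAF group), KAT5, KAT6A, KAT6B, KAT7 and KAT8 (the MYST group), EP300 and CREBBP (the p300/CBP group) and HAT1.

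The study collected goat (Capra hircus) embryos after somatic cell nuclear transfer (SCNT), in which a body cell nucleus replaces that of the egg, and after in vitro fertilisation (IVF). Polyadenylated RNA of lysed embryos was sequenced with Smart-seq2, which amplifies full-length cDNA from few cells. The series asked how the long non-coding RNA lnc_3712 bears on reprogramming, and its knockdown is not analysed here. Messenger RNA values cover the 8-cell stage, with 2 SCNT and 2 IVF libraries. No further treatment or allele is given for either group. The labels do not name the donor cells, the embryos per library or whether replicates came from separate pools, so p-values measure only the spread between these samples, which may be technical. In whole embryos, fewer cells with a transcript and less of it per cell cannot be told apart.

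Library totals of 28.4 and 28.5 M reads (M, 1000000) in SCNT and 27.5 and 30.3 M reads in IVF were recovered from the steps between the deposited FPKM values (fragments per kilobase of gene and per 1000000 fragments). Oocyte and early embryo markers were high in all 4 libraries, with summed levels of 3129 and 4393 FPKM over 10 genes in SCNT and 2533 and 2774 FPKM in IVF. Fibroblast markers summed to 79.7 and 77.1 FPKM over 12 genes in SCNT, against 122 and 109 FPKM in IVF. The lower sum in SCNT came from DCN, the proteoglycan decorin, with 33.9 and 39.5 FPKM in SCNT, against 94.3 and 85.5 FPKM in IVF. The other 11 markers summed to 45.8 and 37.7 FPKM in SCNT, against 27.4 and 23.5 FPKM in IVF. Of the 7 tested fibroblast markers 4 lay higher in SCNT without overlap and 1 lower. Over all tested genes, 46.9% lay higher in SCNT without overlap and 17.1% lower. COL1A1, the main collagen gene of fibroblasts, stayed below 1 FPKM in every library, as did THY1, PDGFRB, S100A4 and POSTN. Other fibroblast markers did not. COL1A2 had 6.41 and 6.20 FPKM in SCNT, against 3.22 and 2.44 FPKM in IVF. LUM had 16.5 and 14.2 FPKM in SCNT, against 16.1 and 12.97 FPKM in IVF. VIM had 11.4 and 6.25 FPKM in SCNT, against 2.15 and 4.09 FPKM in IVF. The 8 cumulus and granulosa markers summed to 60.4 and 92.9 FPKM in SCNT, against 84.3 and 89.9 FPKM in IVF. STAR had 39.5 and 58.0 FPKM in SCNT, against 42.4 and 38.8 FPKM in IVF. HAS2 had 17.9 and 18.1 FPKM in SCNT, against 20.6 and 29.4 FPKM in IVF, and TNFAIP6 1.77 and 14.3 FPKM, against 19.5 and 19.8 FPKM. FSHR, AMH and INHA were listed at 0 throughout. Of the 4 tested cumulus markers 0 lay higher in SCNT without overlap and 2 lower. In the limma comparison of SCNT with IVF described below, 1 of 10 tested oocyte markers rose (KHDC3L). So did 1 of 7 tested fibroblast markers (TAGLN), and none of 4 tested cumulus markers passed. An unadjusted limma p under 0.05 was found for 5 of the oocyte, 4 of the fibroblast and 0 of the cumulus markers. Over all tested genes that share was 31.1%. With voom, run on recovered reads, KHDC3L passed, COL3A1 passed in place of TAGLN, and no cumulus marker did. TAGLN, COL3A1 and the oocyte marker NLRP5 reached 1 FPKM in the SCNT libraries alone and so had to lie higher there. The part of such cells in the values below was not tested. The SCNT libraries lay further apart than the IVF libraries, with a median absolute difference between replicates of 0.63 in SCNT and 0.30 in IVF on the log2(FPKM + 1) scale over tested genes.

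All 10 histone acetyltransferase genes reached 1 FPKM in each of the 4 libraries, so the filter on low values (1 FPKM in at least 2 libraries) dropped none of them and favoured neither group. Between 160 and 10624 reads lay behind each value. The 10 genes together summed to 324 and 326 FPKM in SCNT, against 205 and 199 FPKM in IVF. The sums of a group differed little between its replicates, although single genes did. HAT1 alone held 44.3% and 28.7% of the sum in SCNT and 51.7% and 36.5% in IVF. Without HAT1, the other 9 genes summed to 181 and 232 FPKM in SCNT, against 99.3 and 127 FPKM in IVF.

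**Figure D1:**
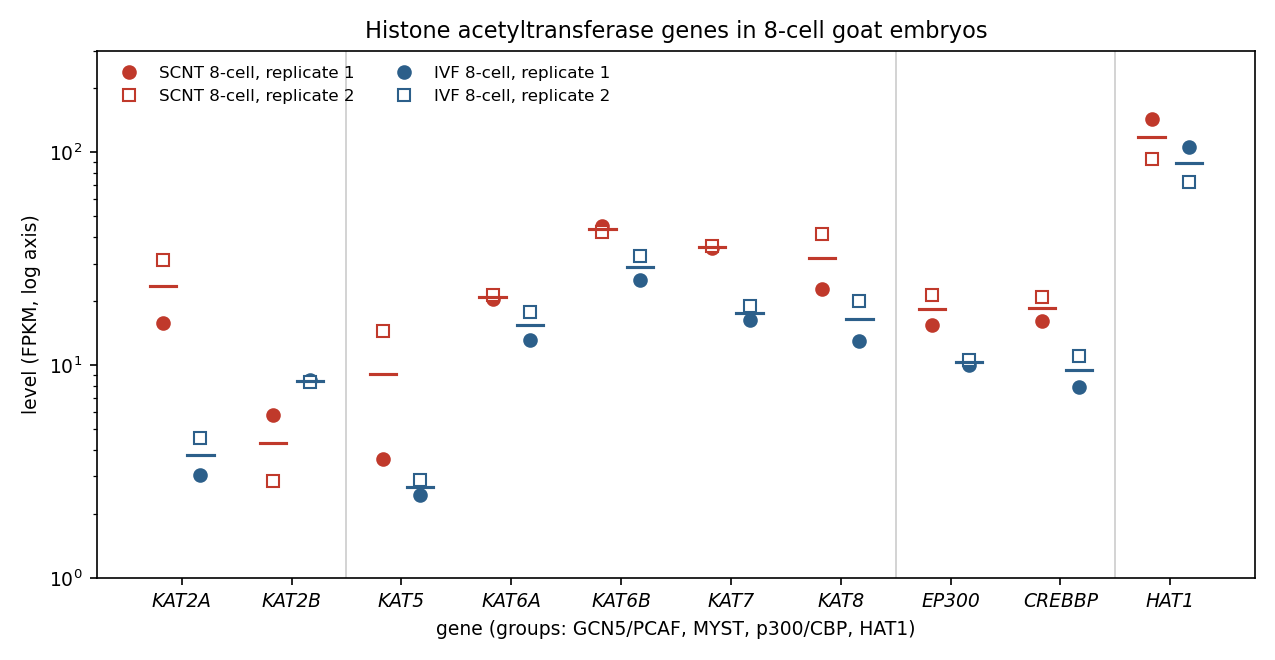
Level of each gene in FPKM on a log axis, with SCNT 8-cell libraries in red on the left and IVF 8-cell libraries in blue on the right of each pair. Circles are replicate 1, squares replicate 2, and bars the group mean (n = 2). HAT1 stands highest in both groups, KAT2A lies higher in SCNT (15.8 and 31.2 FPKM) than in IVF (3.03 and 4.54 FPKM), and KAT2B is the only gene with both SCNT values below both IVF values.

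KAT2A, which encodes GCN5, the catalytic subunit of the SAGA and ATAC coactivator complexes, rose in SCNT embryos. It had 15.8 and 31.2 FPKM in SCNT replicates 1 and 2, from 1426 and 2825 reads, and 3.03 and 4.54 FPKM in IVF replicates 1 and 2, from 264 and 437 reads. Every SCNT value lay above every IVF value, with a gap of 0.94 between the SCNT replicates and 0.46 between the IVF replicates on the log2(FPKM + 1) scale. The means were 23.5 ± 10.9 FPKM in SCNT, against 3.78 ± 1.07 FPKM in IVF (SD, n = 2 each), a 6.22-fold ratio of means. The difference was 2.30 ± 0.50 (SE) on the log2(FPKM + 1) scale, with an adjusted p of 0.048 in limma (Benjamini-Hochberg over all genes tested). In each SCNT library KAT2A outranked 65.9% and 77.2% of the tested genes, and in each IVF library 37.5% and 45.5% of them.

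The call of KAT2A lay close to the threshold of 0.05. It was lost after median centring (log2 difference 1.81, adjusted p = 0.063) and after quantile normalization (1.87, adjusted p = 0.077) in limma. Refitting under other low-value filters also ended it (limma adjusted p = 0.057 at 5 FPKM or more, 0.24 with no filter). It was also lost without SCNT replicate 2 (1.83, adjusted p = 0.10), without IVF replicate 1 (2.07, adjusted p = 0.26) and without IVF replicate 2 (2.53, adjusted p = 0.10). The direction was higher in SCNT in all 14 alternatives tried, with log2 differences from 1.81 to 2.77 and adjusted p from 0.0088 to 0.26.

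KAT2B encodes PCAF, which can take the place of GCN5 in the same complexes. It had 5.80 and 2.84 FPKM in SCNT, from 709 and 349 reads, and 8.52 and 8.32 FPKM in IVF, from 1009 and 1087 reads. The IVF replicates lay close together and both SCNT values were below them. Its log2 difference, -0.88 ± 0.48 (SE), missed the threshold (limma adjusted p = 0.24), and no alternative made it pass (adjusted p from 0.053 to 0.76). It was -0.47 in SCNT replicate 1 and -1.29 in SCNT replicate 2 against the IVF mean. KAT2B was the only member with a negative log2 difference, and 8.16% of tested genes had a lower one.

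Within the GCN5/PCAF pair the order of the paralogs was opposite in the groups. The KAT2A to KAT2B ratio of FPKM was 2.73 and 11.0 in SCNT and 0.355 and 0.546 in IVF. Such a ratio is taken within a library, so no scaling of whole libraries alters it. The other paralog pairs kept their order or stayed near equality: the KAT6A to KAT6B ratio was 0.455 and 0.502 in SCNT and 0.521 and 0.543 in IVF, and the EP300 to CREBBP ratio was 0.953 and 1.02 in SCNT and 1.27 and 0.962 in IVF. The mean log2 ratio differed between SCNT and IVF by 3.64 for KAT2A to KAT2B, by -0.15 for KAT6A to KAT6B and by -0.16 for EP300 to CREBBP. These ratios are given as a description and were not tested.

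**Figure D2:**
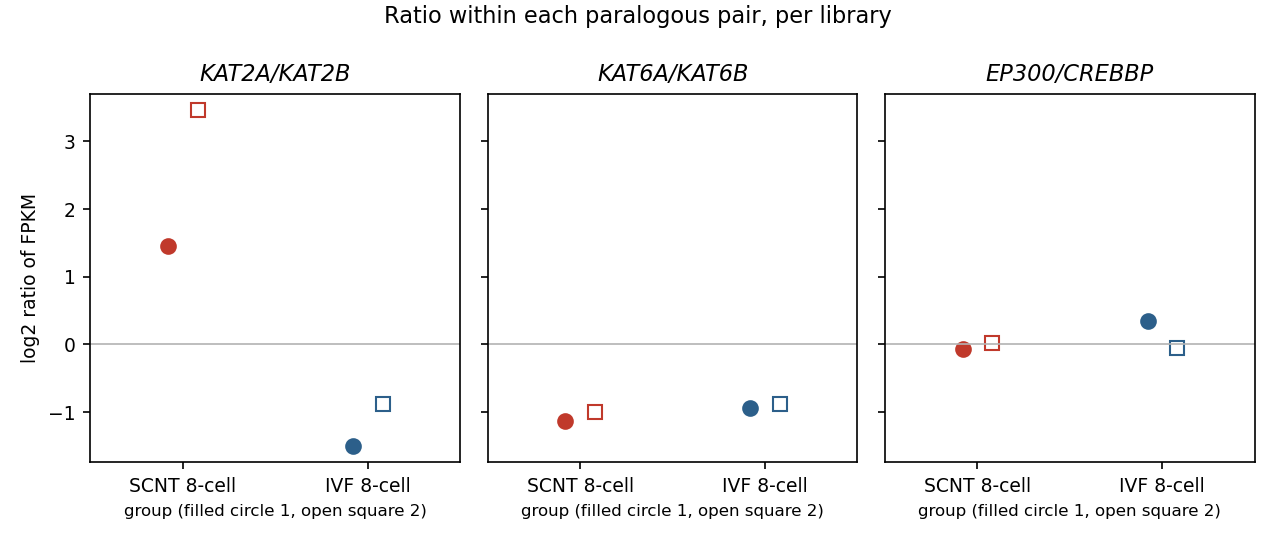
Log2 ratio of FPKM within 3 paralogous pairs, per library, with SCNT 8-cell libraries on the left and IVF 8-cell libraries on the right of each panel. Filled circles are replicate 1 and open squares replicate 2. The KAT2A to KAT2B ratio is above 0 in both SCNT libraries (1.45 and 3.46) and below 0 in both IVF libraries (-1.49 and -0.87), while the other ratios lie close together in the groups.

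The MYST group holds 5 genes. Its summed level was 127 and 156 FPKM in SCNT, against 69.8 and 92.2 FPKM in IVF, and none of the 5 passed in the fit of all 4 libraries. KAT7 encodes HBO1, which acetylates histone H3 and binds near replication origins. It had 35.6 and 36.4 FPKM in SCNT, from 3657 and 3762 reads, and 16.2 and 18.9 FPKM in IVF, from 1618 and 2078 reads. The replicates of each group lay close together and the groups were well apart, with a log2 difference of 0.997 ± 0.40 (SE) and a limma adjusted p of 0.14.

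KAT8 encodes MOF, the enzyme of the MSL and NSL complexes, best known for acetylating H4K16. It had 22.8 and 41.1 FPKM in SCNT, against 12.9 and 19.9 FPKM in IVF, from 731 to 2415 reads. The lower SCNT value lay just above the higher IVF value, and the log2 difference was 0.89 ± 0.47 (SE; limma adjusted p = 0.23). KAT5 encodes TIP60, the enzyme of the NuA4 complex, which acetylates histones H4 and H2A and acts in DNA repair. It had 3.63 and 14.5 FPKM in SCNT, from 244 and 978 reads, and 2.46 and 2.87 FPKM in IVF, from 160 and 206 reads. SCNT replicate 1 lay just above both IVF values and SCNT replicate 2 far above them. The log2 difference was 1.21 ± 0.61 (SE; limma adjusted p = 0.21), 2.08 in SCNT replicate 2 and 0.34 in SCNT replicate 1 against the IVF mean. KAT5 overlaps RNASEH2C in the RefSeq annotation, and reads of overlapping genes cannot be told apart without strand. RNASEH2C had 2.02 and 5.04 FPKM in SCNT, against 1.07 and 0.947 FPKM in IVF, so it too was highest in SCNT replicate 2.

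KAT6A (MOZ) and KAT6B (MORF) are close paralogs that share BRPF scaffold proteins and acetylate histone H3. KAT6A had 20.5 and 21.3 FPKM in SCNT, against 13.1 and 17.8 FPKM in IVF. KAT6B had 45.0 and 42.4 FPKM in SCNT, against 25.1 and 32.7 FPKM in IVF, with 5739 to 10624 reads behind its values. In both genes the groups did not overlap and the SCNT replicates lay within 0.083 of each other on the log2 scale. The log2 differences of 0.43 ± 0.42 for KAT6A (limma adjusted p = 0.52) and 0.59 ± 0.40 for KAT6B (0.34; SE) were near the median of all tested genes, which was 0.39. After median centring the KAT6A difference was -0.06, so its direction depended on the scaling.

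EP300 and CREBBP encode p300 and CBP, coactivators that acetylate H3K27 at enhancers and promoters. EP300 had 15.4 and 21.3 FPKM in SCNT, against 10.03 and 10.6 FPKM in IVF. CREBBP had 16.2 and 20.9 FPKM in SCNT, against 7.93 and 11.0 FPKM in IVF. For each gene both SCNT values were above both IVF values, from 2021 to 5822 reads. The log2 differences of 0.76 ± 0.43 (SE) for EP300 and 0.91 ± 0.44 (SE) for CREBBP did not pass (limma adjusted p = 0.26 and 0.20).

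HAT1 encodes a cytoplasmic and nuclear enzyme that acetylates newly made histone H4 before it is put into chromatin. It had 143 and 93.4 FPKM in SCNT, from 6552 and 4283 reads, and 106 and 72.8 FPKM in IVF, from 4693 and 3554 reads. It was the most abundant member in all 4 libraries and the only one whose groups overlapped. Replicate 1 was the higher library in both groups. The log2 difference was 0.39 ± 0.42 (SE; limma adjusted p = 0.56), and after median centring it was -0.10.

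**Figure D3:**
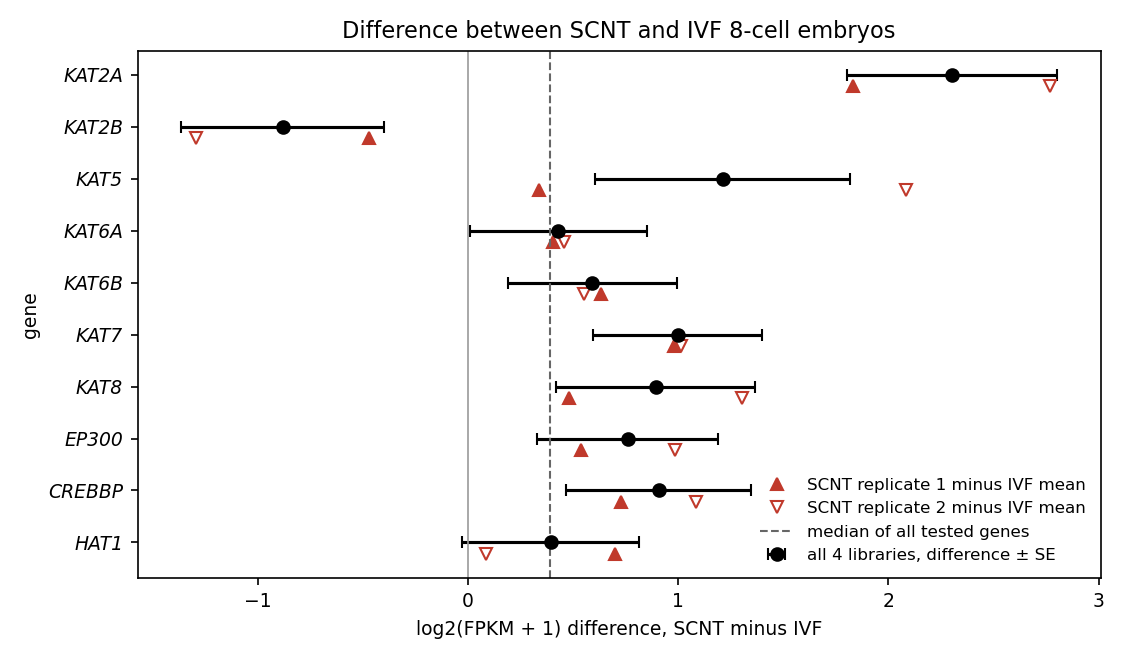
Difference in log2(FPKM + 1) between SCNT and IVF 8-cell embryos for each gene. Black points with bars are the difference over all 4 libraries ± SE, red triangles the value of each SCNT replicate minus the IVF mean, and the dashed line the median of all tested genes (0.39). KAT2A stands farthest to the right (2.30), KAT2B alone lies left of 0 (-0.88), and the SCNT replicates of KAT5 are the farthest apart.

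Of the 10 genes, 1 rose (KAT2A), 0 fell and 9 did not pass. Over all 10303 genes tested in limma, 398 passed (3.86%), 311 of them higher in SCNT (3.02%) and 87 lower (0.844%), with 3200 at an unadjusted p under 0.05. Of the 10 members, KAT2A and KAT7 had an unadjusted p under 0.05. The split of calls over all genes depended on the scaling, with 158 higher and 238 lower after median centring and 121 higher and 150 lower after quantile normalization. The SCNT libraries lay above the IVF libraries without overlap in 8 of the 10 members, where 46.9% of tested genes showed that order, and below them in 1, KAT2B, against 17.1% of tested genes. The members had a median log2 difference of 0.83. For all tested genes the median stood at 0.39 in the values as given, at -0.10 with centred libraries, at 0.44 with libraries rescaled to a common sum and at -0.01 with quantile-normalized libraries. Relative to the median of 0.39, KAT2A lay 1.91 higher, KAT5 0.82, KAT7 0.61, CREBBP 0.52, KAT8 0.50, EP300 0.37 and KAT6B 0.20 higher, KAT6A and HAT1 lay within 0.04 of it, and KAT2B lay 1.27 lower (-1.27).

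The SCNT replicates differed in how far the members lay from IVF. SCNT replicate 2 was farther from the IVF mean than SCNT replicate 1 in 8 of the 10 members, all but KAT6B and HAT1, and in 72.1% of tested genes. With either SCNT replicate left out, the IVF pair was the sole source of spread, so only the size of the differences is given for these fits. The members' median log2 difference was 0.998 without SCNT replicate 1 and 0.58 without SCNT replicate 2. For all tested genes the median was 0.51 and 0.33. Why the 2 fits differed was not tested. On reads recovered from the FPKM steps, limma's voom gave KAT2A a log2 difference of 2.56 (adjusted p = 0.042) and passed no other member.

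By level, HAT1, KAT6B, KAT7 and KAT8 were the 4 highest members in both groups, in that order. In SCNT they were followed by KAT2A, KAT6A, CREBBP, EP300, KAT5 and KAT2B. In IVF the order continued with KAT6A, EP300, CREBBP, KAT2B, KAT2A and KAT5. In SCNT, 6 of the 9 neighbouring pairs in the order had overlapping replicate ranges, and those that did not were HAT1 and KAT6B, KAT6B and KAT7, and EP300 and KAT5. In IVF, 4 of the 9 overlapped, namely KAT7 and KAT8, KAT8 and KAT6A, EP300 and CREBBP, and CREBBP and KAT2B. KAT2A took place 5 of 10 in SCNT and place 9 in IVF, and KAT2B place 10 in SCNT and place 8 in IVF.

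Subunits, partners and opponents of these enzymes were examined in the same fit. Of 103 tested genes in 10 partner lists, 5 rose, 0 fell and 98 did not pass. That is 4.85% of the partner genes, against 3.86% of all tested genes. The SCNT libraries lay above the IVF libraries without overlap in 57 of the 103 (55.3%, against 46.9% of all tested genes) and below them in 14 (13.6%, against 17.1%). An unadjusted limma p under 0.05 was found for 40 of the 103 (38.8%) and for 31.1% of all tested genes, the share to set beside the counts per list that follow. Of the 103, 13 reached 1 FPKM through the SCNT libraries alone and so had to lie higher there. The partner genes that rose were RUVBL2, ING4, ASF1B, GTF3C4 and ACSS2, and the last 2 of these were among the 13. All 5 lost their calls without SCNT replicate 2 (limma adjusted p from 0.080 to 0.11) and without IVF replicate 1 (0.083 to 0.28). After median centring 2 partner genes passed, ASF1B and GTF3C4, and after quantile normalization 1, ASF1B. With voom on the recovered reads 6 passed, RUVBL2, ING4, ASF1B, ACSS2, HCFC1 and RBBP7, all higher in SCNT. No gene of the lists described below as having none past the threshold passed in voom, apart from HCFC1 of the NSL complex and, among the deacetylases, HDAC7 and HDAC9, which reached 1 FPKM through the SCNT libraries alone.

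Among the 25 tested subunits of SAGA and ATAC, which carry KAT2A or KAT2B, none passed (6 had an unadjusted limma p under 0.05) and the median log2 difference was 0.40. The smallest p belonged to KAT14, the other acetyltransferase of ATAC, with 2.44 and 4.81 FPKM in SCNT, against 0.484 and 0.465 FPKM in IVF (log2 difference 1.60 ± 0.41 SE; limma adjusted p = 0.059). KAT14 was among the 2 genes of this list that reached 1 FPKM through the SCNT libraries alone and so had to lie higher there. TRRAP, the large scaffold shared by SAGA and the TIP60 complex and chosen here after its values were seen, had 18.1 and 40.6 FPKM in SCNT, against 5.18 and 10.6 FPKM in IVF (limma adjusted p = 0.082). Of 14 tested subunits of the TIP60 complex, 1 rose (5 had an unadjusted limma p under 0.05). It was RUVBL2, an ATPase also found in remodelling complexes, with 10.9 and 33.3 FPKM in SCNT, against 2.36 and 2.50 FPKM in IVF (log2 difference 2.56 ± 0.57 SE; limma adjusted p = 0.0496). The median of the list was 0.22, below that of all genes.

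Scaffolds of the MOZ, MORF and HBO1 complexes had the highest median log2 difference of the partner lists, 1.26 over 7 tested genes. In all 7 the SCNT values lay above the IVF values, an order shown by 46.9% of all tested genes. All 7 had an unadjusted limma p under 0.05, although 3 of the 7 reached 1 FPKM through SCNT alone, and 1 rose. ING4, a reader of methylated H3K4 in the HBO1 complex, had 14.3 and 26.2 FPKM in SCNT, against 2.74 and 4.03 FPKM in IVF (log2 difference 2.23 ± 0.49 SE; limma adjusted p = 0.048). ING4 was also among the genes whose pattern was nearest to that of KAT2A. Of 10 tested MSL and NSL subunits, which carry KAT8, none passed (4 at an unadjusted limma p under 0.05). HCFC1, a chromatin adaptor of the NSL complex, came nearest, with 9.50 and 21.1 FPKM in SCNT, against 1.66 and 3.48 FPKM in IVF (limma adjusted p = 0.059). The list's median was 1.05.

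None of 8 tested partners of p300 and CBP passed (3 at an unadjusted limma p under 0.05), and their median was 0.83. Of the 8, 2 reached 1 FPKM through the SCNT libraries alone and so had to lie higher there. These were CRTC2 and CARM1, both among the 3. CITED2, which binds p300 and CBP and limits the access of other factors, had 22.9 and 87.4 FPKM in SCNT, against 7.56 and 7.69 FPKM in IVF (limma adjusted p = 0.059). Of 5 tested partners of HAT1, 1 rose (3 at an unadjusted limma p under 0.05). It was ASF1B, a chaperone of histones H3 and H4, with 145 and 224 FPKM in SCNT, against 14.7 and 30.6 FPKM in IVF (log2 difference 3.02 ± 0.48 SE; limma adjusted p = 0.028). RBBP7, the direct partner of HAT1 and chosen here after its values were seen, was the most abundant gene of that list, at 1426 and 2229 FPKM in SCNT, against 536 and 714 FPKM in IVF (limma adjusted p = 0.065).

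Of 4 tested inhibitors of histone acetyltransferases none passed (1 at an unadjusted limma p under 0.05), and the median log2 difference was -0.10. NOC2L came nearest, with 4.00 and 8.44 FPKM in SCNT, against 1.39 and 1.66 FPKM in IVF (limma adjusted p = 0.090). SET, the most abundant of the 4 and chosen here after its values were seen, had 271 and 94.2 FPKM in SCNT, against 294 and 248 FPKM in IVF (log2 difference -0.75). Of 9 other acetyltransferases, 3 reached 1 FPKM through the SCNT libraries alone and so had to lie higher there. The list's median was 0.69, and 1 gene rose (3 at an unadjusted limma p under 0.05). It was GTF3C4, a subunit of the RNA polymerase III factor TFIIIC, with 3.36 and 6.18 FPKM in SCNT, while in IVF it was listed at 0 and 0.593 FPKM (limma adjusted p = 0.043). Of 11 tested readers of acetylated lysine none passed (5 at an unadjusted limma p under 0.05), and the median was -0.18. Of the 11, 5 lay higher in SCNT without overlap and 4 lower, against 46.9% and 17.1% of all tested genes. BRDT, chosen here after its values were seen, was among those at an unadjusted limma p under 0.05 and lay lower in SCNT (log2 difference -1.22). BRD9, a remodelling complex subunit, had the smallest p of the readers. It had 1.28 and 2.14 FPKM in SCNT, against 0.125 and 0.422 FPKM in IVF (limma adjusted p = 0.085). BRD9 was among the 2 readers tested through the SCNT libraries alone. BRD9 overlaps TRIP13 in the RefSeq annotation, which had 61.3 and 80.6 FPKM in SCNT, against 28.8 and 41.7 FPKM in IVF.

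Of 10 tested genes of acetyl-CoA supply, 1 rose (3 at an unadjusted limma p under 0.05). It was ACSS2, which makes acetyl-CoA from acetate in nucleus and cytosol. It had 2.67 and 3.48 FPKM in SCNT, against 0.0959 and 0.239 FPKM in IVF (log2 difference 1.80 ± 0.35 SE; limma adjusted p = 0.040). The list's median was 0.36. The opposing histone deacetylases and sirtuins had 11 of 18 genes tested, with a median log2 difference of 1.33. None of them passed in limma (6 at an unadjusted p under 0.05), and 3 of the 11, SIRT6, HDAC7 and HDAC9, reached 1 FPKM through the SCNT libraries alone and so had to lie higher there. The smallest p was that of SIRT6, a deacetylase of H3K9, with 4.06 and 10.2 FPKM in SCNT, against 0.960 and 0.575 FPKM in IVF (adjusted p = 0.054). Whether acetyltransferases and deacetylases differ in their change was not tested.

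**Figure D4:**
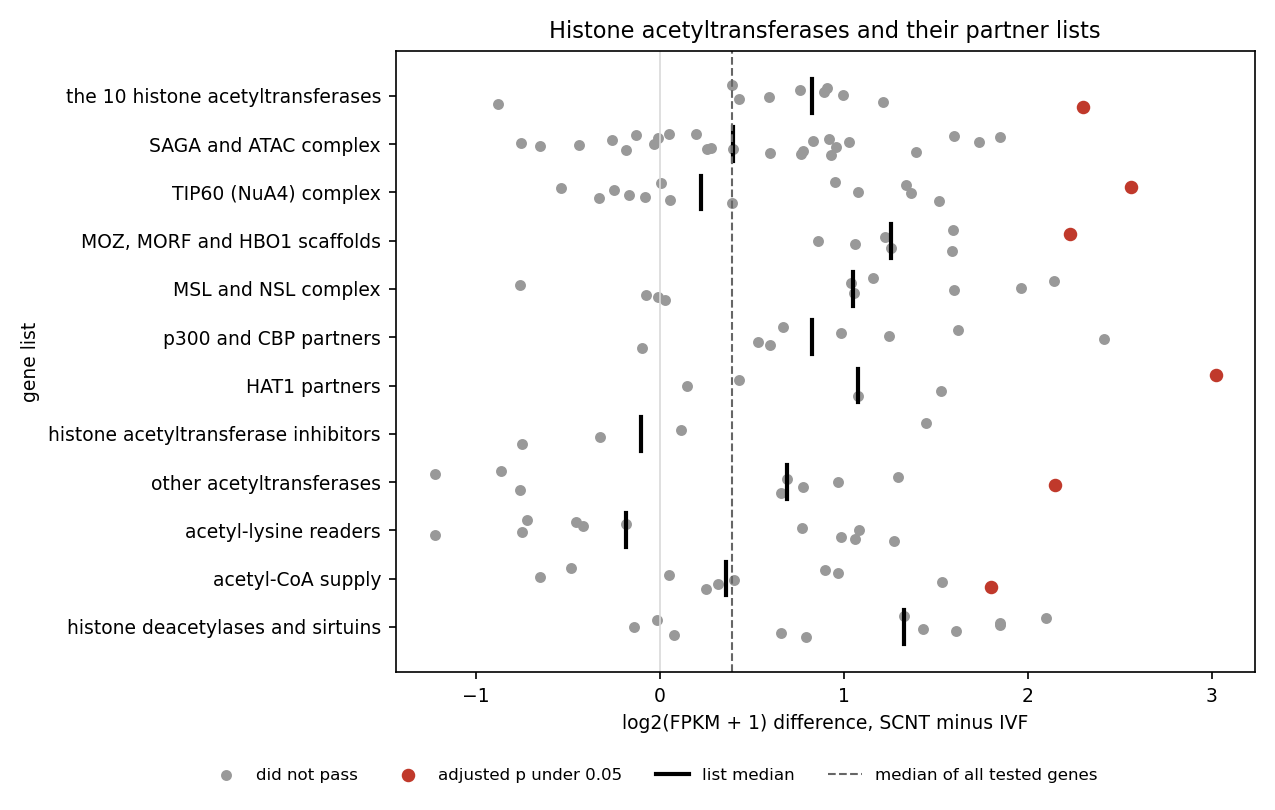
Log2(FPKM + 1) difference between SCNT and IVF 8-cell embryos for each tested gene of the 10 histone acetyltransferases, of 10 partner lists and of the histone deacetylases and sirtuins. Red points passed at an adjusted p under 0.05 in limma, grey points did not, black bars are list medians and the dashed line is the median of all tested genes (0.39). The red points are KAT2A, RUVBL2, ING4, ASF1B, GTF3C4 and ACSS2, all right of the dashed line.

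The 5 genes with the pattern most like that of KAT2A were found by the Euclidean distance of log2(FPKM + 1) values, centred per gene, over the 4 libraries. They were PRR3 (distance 0.085), PPIL1 (0.097), ING4 (0.11), LXN (0.12) and GPN2 (0.12). PPIL1, a splicing-associated prolyl isomerase, had 39.1 and 80.5 FPKM in SCNT, against 9.53 and 12.8 FPKM in IVF. LXN, a carboxypeptidase inhibitor, had 4.22 and 8.78 FPKM in SCNT, against 0.153 and 0.554 FPKM in IVF. It reached 1 FPKM in the SCNT libraries alone and so had to lie higher there. LXN also overlaps GFM1 in the RefSeq annotation, and GFM1 too was higher in both SCNT libraries than in both IVF libraries. PRR3 likewise overlaps GNL1, which had 0.841 and 4.01 FPKM in SCNT, against 0.509 and 0.247 FPKM in IVF. Over so few libraries many genes can share a pattern.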

How the data were processed

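The authors deposited FPKM values per gene for 2 SCNT and 2 IVF 8-cell libraries. The tools listed in the submitters' processing notes are HISAT2 2.2.1, HTSeq and fastp, with no role or order. The genome build was not given in the sources used here, nor were the annotation and the use of strand, so coordinates are left out. The 4-cell libraries and the lncRNA tables, which hold none of the 10 genes, were not used here.

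The main test was limma 3.58.1 (R 4.3.3), with lmFit and a trended eBayes, on log2(FPKM + 1). It covered the 10303 of 22107 genes that reached 1 FPKM in 2 or more libraries. Differences are SCNT minus IVF and understate the ratio of low genes. Tests were two-sided, adjusted by Benjamini-Hochberg over all tested genes, at a threshold of 0.05. The fit was also run on simulated data. The simulation had the same spread in both groups, unlike these libraries, so it cannot vouch for any call.

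Library totals were the values at which short genes, with RefSeq lengths, came to whole reads. Within 0.01 read, 82.1% to 84.6% of the short genes under 60 reads did so, and at a total set wrong on purpose at most 0.205%. The smallest gene length giving whole reads in every library then gave reads for all but 3 genes. Intervals from such reads would cover counting error only, since PCR copies cannot be told from separate molecules.

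Named genes were the 10 members, those past the threshold in each partner list (at most 4) or otherwise the smallest p, and the 5 nearest to the member with the smallest p. Members and lists were chosen with earlier results of these data known. Alternatives were other pseudocounts, filters and scalings, no trend, each library left out, the replicate number as a block and, added after seeing the data, voom on recovered reads.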

Additional observations from a re-analysis of the deposited data

How the results depend on the processing

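Over all genes, 398 passed as deposited. The count was 0 with no low-value filter (3661 at an unadjusted p under 0.05 in limma), 133 with a filter at 5 FPKM, 1327 after rescaling to 1000000 and 46 to 3834 when each library was left out in turn. Of the 10 histone acetyltransferase genes, 1 passed, and 0 did with no low-value filter, with a filter at 5 FPKM, after median centring or after quantile normalization. Leaving out each library gave 0 to 4. The members' median log2 difference was 0.83, against 0.33 after median centring and 0.45 after quantile normalization. Of the partner genes, 5 passed, and the count was 0 with no low-value filter, 1 at 5 FPKM, 2 after median centring, 1 after quantile normalization, 2 without the trend, 15 after rescaling and 0 to 48 when each library was left out. After median centring the differences of KAT6A (-0.064) and HAT1 (-0.10) changed sign. Centring moves the difference of every gene by the same amount, and the median of all tested genes went from 0.39 to -0.10. The cause of the changes in counts was not tested. Of 139 values for the members under the alternatives, 127 kept their direction and their side of the threshold. KAT5 fell below the filter at 5 FPKM and has no value there. The labels do not say that replicate numbers pair the libraries, and the replicate differences of the groups correlated at 0.12 across genes. With the replicate number as a block, 1924 genes, 20 partner genes and 1 member (KAT2A, limma adjusted p = 0.0088) passed. Between 160 and 10624 recovered reads, PCR copies included, lay behind each value of a member.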
